A study of Rattus norvegicus with 12 samples.

Results

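Toll-like receptors and the proteins that pass endotoxin to them were followed as a set of 8 genes: Tlr2, Tlr3, Tlr4, Tlr7, Cd14, Ly96, Lbp and Myd88. A gene was taken where the array annotation gives a probe set this symbol and no other. That left 7 of the 8 genes, with 1 probe set each, of 14217 genes measured in this way. Tlr3 was not analysed here.

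The samples were hippocampal slice cultures of Wistar rats of postnatal day 7, kept for 26 days in vitro, and RNA from 24 cultures was pooled for each array. In the first group, 7B12, a mouse monoclonal antibody against rat Nogo-A, was added at day 21 for 5 days at 3 µg/ml. In the second, 11C7, a mouse monoclonal antibody against another stretch of rat Nogo-A, was added in the same way. Nogo-A restrains the growth of axons and sits mainly in oligodendrocyte membranes and in certain neurons. The third group received a control IgG, a monoclonal antibody raised against wheat auxin, at the same dose and time, and the fourth, NT, received no antibody. Each group had 3 arrays, numbered 1 to 3, and per the labels the replicates were separate cultures from different animals. Every group held whole slices without added immune cells, so the immune cells present are those that the slice kept. The endotoxin content of the antibody preparations is not given in the sources used here.

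Toll-like receptors are sensors of microbial molecules, and in brain tissue they are best known from microglia. Endotoxin, the lipopolysaccharide of Gram-negative bacteria, is picked up by the serum protein LBP, handed to CD14, and bound by MD-2 (the product of Ly96) together with TLR4. TLR2 senses bacterial lipoproteins, and TLR7 senses single-stranded RNA in endosomes. MYD88 is the adaptor through which TLR2, TLR4 and TLR7 signal to NF-kappaB, and TLR4 also signals through the adaptor TRIF to interferon genes.

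To show the regulatory DNA of genes that varied together over the arrays, the DNA just before 3 of them is shown: Tlr2, whose array values are given first below, Myd88, the shared adaptor, and Tlr4, the endotoxin receptor. The sequences are the 250 bases before the start that a table of RefSeq promoters for the rat build GRCr8 gives, which held 6 of the 8 genes. That start equals the outer end of the annotated RefSeq gene for Tlr3, Tlr4 and Myd88. It lies inside the annotated gene by 274 bases for Tlr2, 251 bases for Cd14 and 102 bases for Tlr7, so the whole Tlr2 stretch shown lies within the gene's span, chr2:171499189-171504831. Distances below are counted from the table's start. Capitals mark matches to the NF-kappaB motif, searched by its consensus of 10 bases, or to the interferon response core GAAANNGAA. The core GAGGAAGT of PU.1, a myeloid transcription factor, was searched too. Both strands were searched.
Tlr2, chr2:171504558-171504807, minus strand: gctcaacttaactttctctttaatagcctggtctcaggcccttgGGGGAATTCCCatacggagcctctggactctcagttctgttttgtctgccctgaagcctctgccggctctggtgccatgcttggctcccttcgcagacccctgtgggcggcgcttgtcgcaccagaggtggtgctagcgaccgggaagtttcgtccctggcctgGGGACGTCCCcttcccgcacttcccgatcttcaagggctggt
Myd88, chr8:127956231-127956480, minus strand: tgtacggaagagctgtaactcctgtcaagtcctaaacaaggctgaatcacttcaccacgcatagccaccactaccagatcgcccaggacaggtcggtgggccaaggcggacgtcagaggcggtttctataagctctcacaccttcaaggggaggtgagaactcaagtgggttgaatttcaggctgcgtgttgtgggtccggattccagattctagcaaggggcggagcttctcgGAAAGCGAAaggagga
Tlr4, chr5:85160997-85161246, plus strand: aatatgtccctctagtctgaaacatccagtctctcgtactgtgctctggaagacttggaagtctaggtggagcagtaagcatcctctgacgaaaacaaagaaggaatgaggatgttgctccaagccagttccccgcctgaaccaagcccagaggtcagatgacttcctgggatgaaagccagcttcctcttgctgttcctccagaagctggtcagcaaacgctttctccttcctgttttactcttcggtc
Tlr2 held an NF-kappaB match 206 to 197 bases before the table's start, an overlapping one at 205 to 196 bases and another at 42 to 33 bases. Myd88 held 1 interferon response core, 16 to 8 bases before the table's start, and Cd14 held 1 that spans bases 6 to 14 from that start on. Neither motif was found in the windows of Tlr4, Tlr7 and Tlr3, and the PU.1 core in none of the 6 windows. Over the window of 300 bases, 250 before and 50 after the start, 7.60% of 27457 promoters held the NF-kappaB motif 9.50% the interferon response core and 2.44% the PU.1 core. A match describes the letters only.

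The deposited value of a probe set is a ratio to a reference of that same probe set. Levels of different genes therefore cannot be set against each other, and only differences between arrays are read. Each value below is the log2 ratio after subtraction of the array's median, called the log2 value. Per-gene tests used limma over 31042 probe sets, with Benjamini-Hochberg adjustment and a threshold of 0.05, and the controls were NT and IgG weighted equally. Of the probe sets tested, 0 (0%) passed in each of the 5 comparisons. The gene of the antibodies' target, Rtn4, lay within 0.09 of the controls on the log2 scale at both of its probe sets in both antibody groups, and since the antibodies bind the protein this checks nothing about the labels.

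The 11C7 arrays did not lie together: for all 7 genes, 11C7 1 stood above 7B12 1, while 11C7 2 and 11C7 3 stood below 7B12 2 and 7B12 3. Over all probe sets, 14.5% showed that order. Differences of the 7 genes that involve 11C7 are therefore given with and without 11C7 1. Arrays of the same number also shared a shift, and among the controls the arrays numbered 3 were the highest for Tlr2, Tlr4 and Ly96. For 7B12 and 11C7 against the controls, differences within a number are therefore given beside the pooled ones.

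In 7B12 cultures the endotoxin co-receptor Cd14 and the receptor Tlr2 stood furthest above the controls, 5.20-fold and 3.36-fold, followed by Tlr7 at 1.97-fold. Ly96 and Myd88 stood 1.58-fold and 1.37-fold above, and Tlr4 1.28-fold. None of these differences passed the test after adjustment over all probe sets. Before adjustment, 5 of the 7 genes had a p under 0.05 with the higher value in 7B12 (Tlr2, Tlr7, Cd14, Ly96 and Myd88), against 3.09% of all probe sets. All 3 arrays of 7B12 lay above all 6 control arrays for 4 of the 7 genes (Tlr2, Tlr7, Cd14 and Myd88), against 1.99% of all probe sets. With the values as deposited, without removal of the array median, this held for 3 of them, all but Tlr7, against 1.57% of probe sets.

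Tlr2, the lipoprotein receptor, had log2 values of 0.70, 0.72 and 2.02 on the 7B12 arrays and 1.00, -0.96 and -0.04 on the 11C7 arrays. Its values were -0.98, -0.88 and 0.21 on the IgG arrays and -1.02, -1.07 and 0.12 on the NT arrays. The lowest 7B12 array lay above the highest control, and the IgG and NT arrays overlapped. The mean was 1.15 ± 0.75 in 7B12, 0.00 ± 0.98 in 11C7, -0.55 ± 0.66 in IgG and -0.66 ± 0.67 in NT (SD, n = 3 each). The difference of 7B12 from the controls was 1.75 ± 0.51 (SE; limma, adjusted p = 0.682). Most of the spread lay between numbers: 7B12 less the mean of the controls of its own number was 1.70, 1.70 and 1.85 for numbers 1, 2 and 3. The gap between IgG and NT of the same number was 0.04, 0.18 and 0.09.

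Tlr4, the endotoxin receptor, had log2 values of -0.00, 0.32 and 0.54 on the 7B12 arrays and 0.10, -0.40 and 0.29 on the 11C7 arrays. Its values were -0.22, -0.08 and 0.40 on the IgG arrays and -0.51, -0.24 and 0.23 on the NT arrays. All 4 groups overlapped. The difference of 7B12 from the controls was 0.35 ± 0.24 (SE; limma, adjusted p = 1.00), and within numbers it was 0.36, 0.48 and 0.23.

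Tlr7, the endosomal receptor for single-stranded RNA, had log2 values of 0.59, 0.22 and 1.21 on the 7B12 arrays and 0.77, -0.49 and 0.11 on the 11C7 arrays. Its values were -0.05, -0.59 and 0.16 on the IgG arrays and -0.11, -1.15 and -0.10 on the NT arrays. The 7B12 arrays lay above all controls, by a margin under 0.1 at the closest pair, 7B12 2 and IgG 3. The difference of 7B12 from the controls was 0.98 ± 0.37 (SE; limma, adjusted p = 0.861), and within numbers it was 0.67, 1.09 and 1.18.

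**Figure D1:**
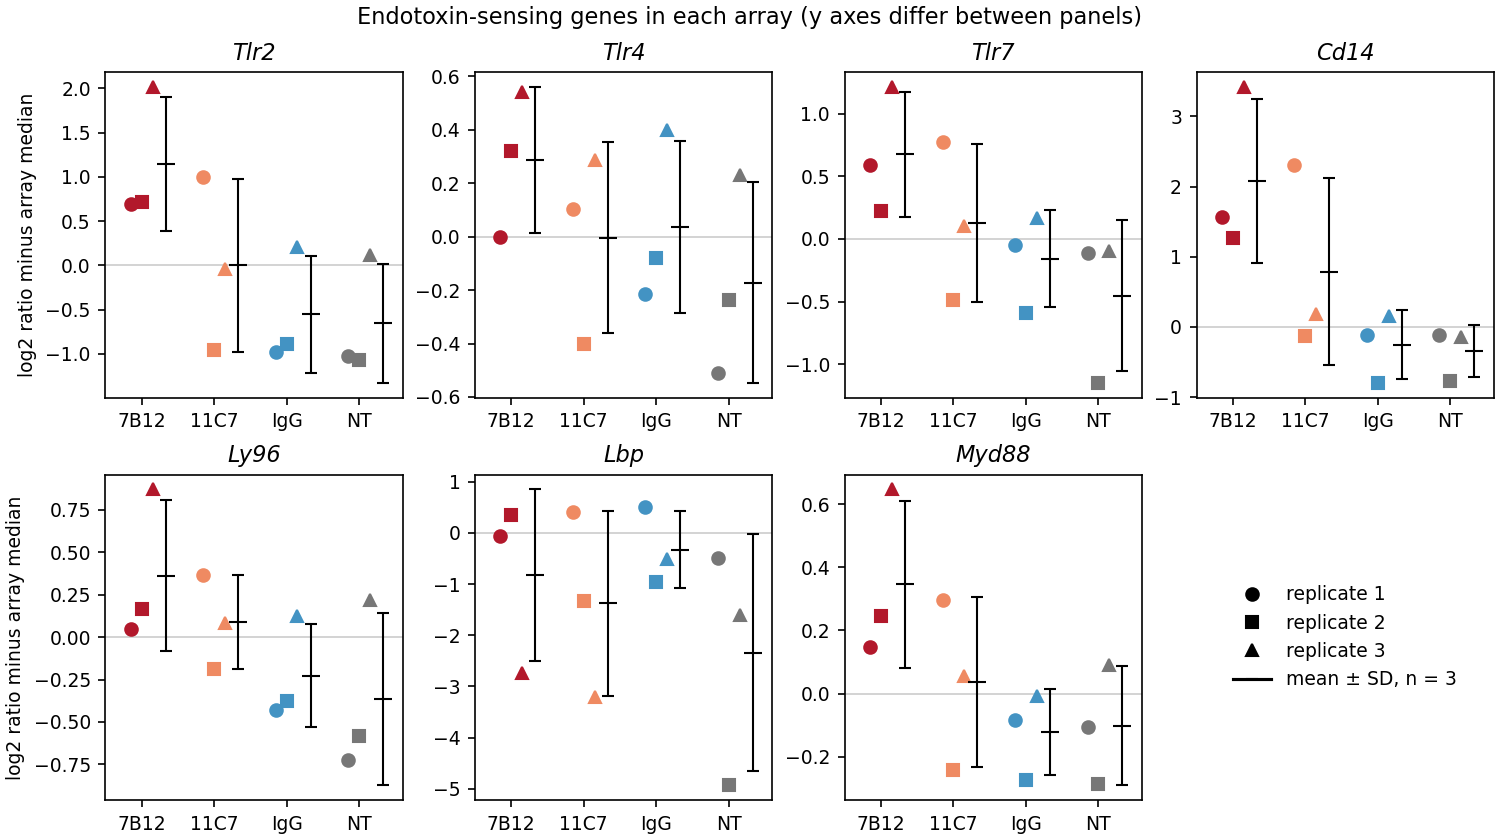
Log2 value (log2 ratio less the array median) of the 7 measured genes on each of the 12 arrays, with groups from left to right 7B12, 11C7, IgG and NT; each point is an array, its shape gives the replicate number, the bar beside it is the group mean ± SD (n = 3), and the y axes differ between panels. For Cd14 the 7B12 arrays sit between 1.26 and 3.42 and the 6 controls between -0.80 and 0.15, with 11C7 1 at 2.31.

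Cd14, the co-receptor that hands endotoxin to MD-2 and TLR4 and also serves TLR2, had log2 values of 1.56, 1.26 and 3.42 on the 7B12 arrays and 2.31, -0.14 and 0.19 on the 11C7 arrays. Its values were -0.11, -0.80 and 0.15 on the IgG arrays and -0.12, -0.77 and -0.14 on the NT arrays. The 7B12 arrays were clear of the controls, and 11C7 1 lay among the 7B12 arrays. The difference of 7B12 from the controls was 2.38 ± 0.61 (SE; limma, adjusted p = 0.609). Within numbers it was 1.67, 2.05 and 3.41. Of the 7 genes, Cd14 had the lowest unadjusted p, and by rank it stood at 163 of 31042 probe sets.

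Ly96, which encodes the endotoxin-binding partner of TLR4, had log2 values of 0.05, 0.17 and 0.87 on the 7B12 arrays and 0.37, -0.19 and 0.08 on the 11C7 arrays. Its values were -0.43, -0.37 and 0.12 on the IgG arrays and -0.73, -0.58 and 0.22 on the NT arrays. The pooled groups overlapped, since NT 3 lay above 7B12 1 and 7B12 2. Within numbers the differences were close to each other, at 0.63, 0.65 and 0.70, and the pooled difference was 0.66 ± 0.28 (SE; limma, adjusted p = 0.931).

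Lbp, which carries endotoxin in serum, varied most between arrays of a group. Its log2 values were -0.07, 0.34 and -2.74 on the 7B12 arrays and 0.41, -1.34 and -3.21 on the 11C7 arrays. They were 0.50, -0.97 and -0.52 on the IgG arrays and -0.48, -4.93 and -1.60 on the NT arrays. The median of its deposited ratios over the 12 arrays was 0.58, against 1 for each other member. On NT 2 its deposited ratio was 0.031, the lowest of any member. Whether such a value lies near background cannot be read from ratios. No group stood apart, and the difference of 7B12 from the controls was 0.51 ± 1.12 (SE; limma, adjusted p = 1.00), within numbers -0.08, 3.29 and -1.68. Its direction turned when 7B12 was set against IgG alone, to -0.49.

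Myd88, the adaptor, varied over a narrow range. Its log2 values were 0.15, 0.25 and 0.65 on the 7B12 arrays and 0.30, -0.24 and 0.06 on the 11C7 arrays. They were -0.08, -0.27 and -0.01 on the IgG arrays and -0.11, -0.29 and 0.09 on the NT arrays. The 7B12 arrays lay above all controls, and the difference was 0.46 ± 0.18 (SE; limma, adjusted p = 0.896), within numbers 0.24, 0.53 and 0.61.

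Each 7B12 array lay above both controls of its own number for 6 of the 7 genes, all but Lbp, against 8.07% of all probe sets. Same-numbered arrays of 7B12 and the controls deviated together in all 6 pairings, so the fit was repeated with the number as a block. With the block over all 12 arrays, 0 probe sets passed (0%) and 2933 had an unadjusted p under 0.05 (1615 without it). The block fit put 5 of the 7 genes at an unadjusted p under 0.05 with a higher value in 7B12, against 5.16% of probe sets. With the block and the 11C7 arrays left out, 68 probe sets passed, 61 higher and 7 lower in 7B12, which is 0.219% of those tested. With any one of the 9 arrays also left out, 0 probe sets passed, so every call in this fit was lost, those named further on included. Tlr2 was the member among them, at 1.75 ± 0.09 (SE; limma, adjusted p = 0.0187). The adjusted p in that fit was 0.114 for Cd14, 0.130 for Tlr7, 0.136 for Ly96, 0.280 for Myd88, 0.331 for Tlr4 and 0.895 for Lbp. For Tlr2 those 9 fits gave an adjusted p between 0.103 and 0.149 and values between 1.70 and 1.78. With only 11C7 1 left out and the block kept, 99 probe sets passed (0.319%), Tlr2 among them (limma, adjusted p = 0.00709). Array 11C7 1 was singled out by its values for these same genes, so this p is no independent support. Leaving it out kept the Tlr2 difference at 1.75 and lowered its SE from 0.40 to 0.10. With all 12 arrays in the block fit, the adjusted p of Tlr2 was 0.319 (limma).

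**Figure D2:**
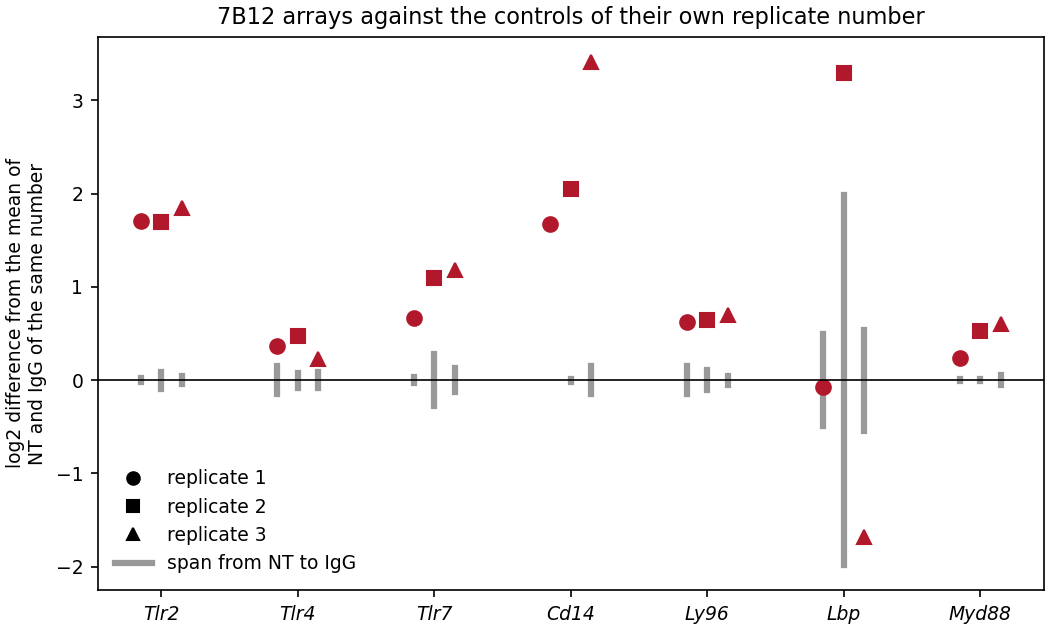
Difference in log2 value of the 7B12 array of each number from the mean of the IgG and NT arrays of that number, for the 7 measured genes; the shape of a point gives the number and the grey bar spans the IgG and NT arrays of that number. The 7B12 points of Tlr2 lie at 1.70, 1.70 and 1.85, clear of the grey bars, while those of Lbp lie at -0.08, 3.29 and -1.68.

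The 11C7 group addresses whether the second antibody, which has the same target, gave the same differences. Cd14 differed from the controls by 1.09 ± 0.61, Tlr2 by 0.60 ± 0.51, Tlr7 by 0.43 ± 0.37 and Ly96 by 0.38 ± 0.28 (SE, n = 3 against 6). The differences were 0.15 ± 0.18 for Myd88, 0.06 ± 0.24 for Tlr4 and -0.04 ± 1.12 for Lbp. None of the 7 had an unadjusted p under 0.05 by limma, against 3.22% of all probe sets. Within numbers 1, 2 and 3, 11C7 differed from the controls by 2.43, 0.65 and 0.18 for Cd14, by 2.00, 0.02 and -0.21 for Tlr2, and by 0.85, 0.38 and 0.07 for Tlr7. For Ly96 these were 0.95, 0.29 and -0.09, for Myd88 0.39, 0.04 and 0.02, for Tlr4 0.47, -0.25 and -0.03, and for Lbp 0.41, 1.61 and -2.15. Without 11C7 1 the differences were 0.32 for Cd14, 0.10 for Tlr2, 0.11 for Tlr7, 0.24 for Ly96, 0.02 for Myd88, 0.01 for Tlr4 and -0.94 for Lbp. All 3 arrays of 11C7 lay above all 6 controls for 0 of the 7 genes (0.767% of probe sets). Each 11C7 array lay above both controls of its number for 1 gene, Cd14 (4.5%). Array 11C7 1 alone lay above all 6 controls for 5 of them (14.1% of probe sets), 11C7 2 for 0 (13.1%) and 11C7 3 for 1, Cd14 (11.7%).

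Set directly against 11C7, 7B12 stood higher by 1.29 ± 0.71 for Cd14, 1.15 ± 0.59 for Tlr2, 0.55 ± 0.42 for Tlr7 and 0.55 ± 1.29 for Lbp. It stood higher by 0.31 ± 0.21 for Myd88, 0.29 ± 0.28 for Tlr4 and 0.27 ± 0.32 for Ly96 (SE, n = 3 each). No gene of the set had an unadjusted p under 0.05 by limma, against 3.83% of probe sets. With the number as a block over all 12 arrays, 1 did, Tlr2, against 7.04% of probe sets, and 0 passed after adjustment. Without 11C7 1 and with no block, 7B12 stood higher by 2.05 for Cd14, 1.65 for Tlr2, 0.87 for Tlr7, 1.45 for Lbp, 0.44 for Myd88, 0.35 for Tlr4 and 0.41 for Ly96. Other single arrays moved these values too: Cd14 lay at 0.62 and Ly96 at 0.018 without 7B12 3, and Tlr7 at 0.24, Tlr2 at 0.67 and Tlr4 at 0.092 without 11C7 2. Without 11C7 1 and with the number as a block, 27 probe sets passed, or 0.087%. Tlr2 was among them, 1.85 ± 0.14 higher in 7B12 (SE; limma, adjusted p = 0.0372). Array 11C7 1 was singled out by its values for these same genes, so this p is no independent support. With all 12 arrays in the block fit, the adjusted p of Tlr2 was 0.698 (limma). The 2 antibody groups share their control arrays, so their differences from the controls are not independent.

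For both antibodies against the controls, Cd14 differed from the controls by 1.73 ± 0.50, Tlr2 by 1.18 ± 0.42, Tlr7 by 0.71 ± 0.30 and Ly96 by 0.52 ± 0.23 (SE, n = 6 each). These 4 had an unadjusted p under 0.05 by limma, against 2.37% of probe sets in that direction, and 0 passed after adjustment. Without 11C7 1 the differences were 1.35 for Cd14, 0.93 for Tlr2, 0.55 for Tlr7, 0.45 for Ly96, 0.24 for Myd88, 0.18 for Tlr4 and -0.22 for Lbp. Tlr7 and Ly96 then no longer had an unadjusted p under 0.05 by limma.

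The control antibody was compared with no antibody to see what IgG as such did. IgG stood 0.10 ± 0.59 above NT for Tlr2, 0.09 ± 0.71 for Cd14, 0.29 ± 0.42 for Tlr7, 0.21 ± 0.28 for Tlr4 and 0.14 ± 0.32 for Ly96 (SE, n = 3 each). Myd88 lay at -0.02 ± 0.21 and Lbp at 2.01 ± 1.29; the lowest Lbp value was that of NT 2, and without that array Lbp stood 0.71 above NT. No gene of the set had an unadjusted p under 0.05 by limma, against 2.32% of probe sets.

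**Figure D3:**
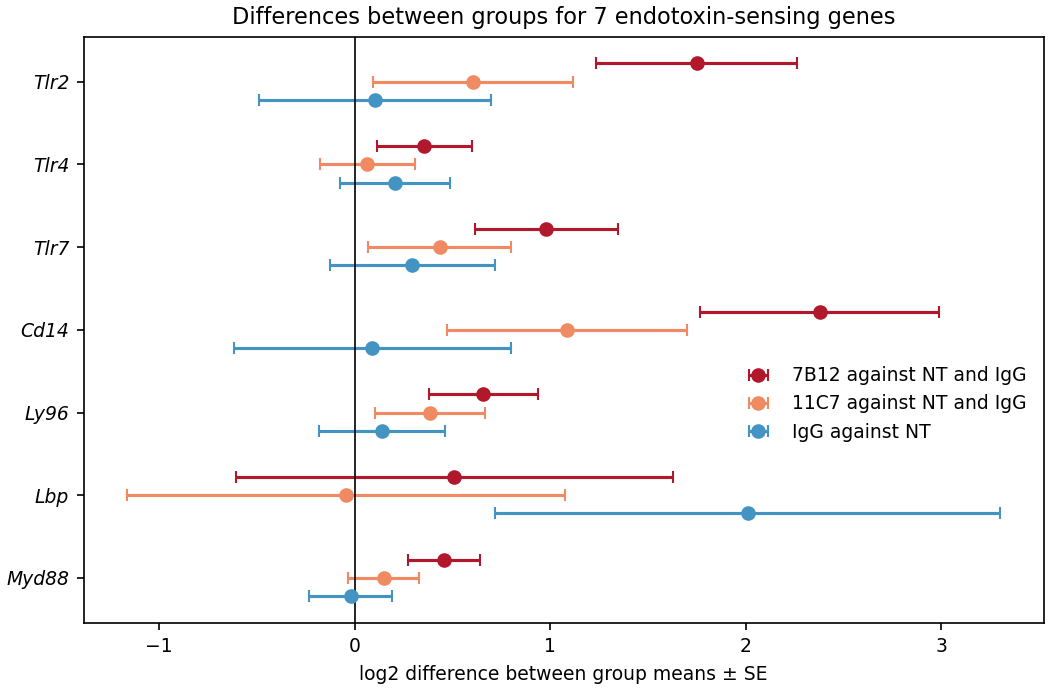
Log2 differences with their SE from limma for the 7 measured genes in the comparisons of 7B12 and of 11C7 with the controls and of IgG with NT; a positive value means higher in the group named first. In 7B12 against the controls Cd14 lies at 2.38 and Tlr2 at 1.75, and in IgG against NT both lie within 0.11 of 0.

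Lists of genes around these receptors were counted in the same fit, where over all 14217 genes 52.1% stood above the controls in 7B12 and the median difference was 0.01. The 7 genes of the set all stood above, with a median of 0.66. No probe set of any list passed after adjustment. The lists were chosen with earlier results of these data known, so their counts are descriptions. In 11C7, 6 of the 7 stood above the controls with a median of 0.38, against 56.1% of all genes and a median of 0.03. Without 11C7 1 the median of the 7 was 0.10, with 6 above the controls, against 54.8% of all genes and a median of 0.03. Pathway lists described below also leaned upward in 11C7, with smaller medians than in 7B12. There, 19 of 20 MYD88 targets stood above the controls (median 0.61), 16 of 17 TRIF and interferon targets (0.74) and 9 of 9 ligand-handling genes (0.30). So did 10 of 14 negative regulators (0.17), 12 of 17 adaptors and kinases (0.07) and 7 of 8 border macrophage markers (0.33). These counts include 11C7 1, and the direction was not particular to 7B12.

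Of the other Toll-like receptors, 2 of 9 were measured. Tlr1, which pairs with TLR2, stood 2.42 ± 0.60 above the controls in 7B12 and Tlr8, an endosomal receptor, 1.48 ± 0.33 (SE; limma, adjusted p = 0.577 and 0.543). Tlr1 had log2 values of 1.504, 1.94 and 3.03 on the 7B12 arrays and 1.96, -0.94 and -0.14 on the 11C7 arrays. Its values were -0.83, -0.20 and 0.20 on the IgG arrays and -0.89, -0.07 and 0.19 on the NT arrays. The 7B12 arrays were clear of the controls, and Tlr1 also passed in the block fit without 11C7 (adjusted p = 0.0261 by limma), a call lost with any further array left out.

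Adaptors and kinases next to the receptors had a median difference of 0.09 in 7B12, beside 0.01 for all genes, and 14 of 17 measured stood above the controls. Those with the lowest p were Unc93b1, the chaperone of endosomal Toll-like receptors, at 0.55 ± 0.21, Tirap, the bridging adaptor of TLR2 and TLR4, at 0.53 ± 0.25, and the kinase Irak2 at 0.50 ± 0.25 (SE).

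Genes that handle endotoxin and other bacterial ligands stood above the controls in 9 of 9 measured cases, with a median of 0.56. Casp4, whose product binds endotoxin in the cytosol, lay at 0.56 ± 0.23, Itgam, a subunit of complement receptor 3, at 0.94 ± 0.42, and Casp1, the inflammasome protease, at 0.79 ± 0.35 (SE).

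Negative regulators of the pathway stood above the controls for 12 of 14 genes, with a median of 0.45. Irak3, a kinase relative that restrains MYD88 signalling, lay at 1.404 ± 0.35, with log2 values of 1.20, 0.92 and 1.58 in 7B12 and 1.41, 0.01 and -0.19 in 11C7. Its values were 0.07, -0.30 and -0.12 in IgG and 0.27, -0.53 and -0.42 in NT. Again 11C7 1 lay with the 7B12 arrays. Tnip1, a partner of the ubiquitin editor A20, lay at 0.97 ± 0.26, Nfkbia, the inhibitor that holds NF-kappaB in the cytosol, at 0.80 ± 0.27, and Tnfaip3, which encodes A20, at 0.95 ± 0.36 (SE).

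Target genes were counted for both branches of the pathway. Of the genes listed as MYD88 targets, 19 of 20 measured stood above the controls in 7B12 with a median of 1.31. Those with the lowest p were Saa3, an acute-phase protein, at 6.91 ± 1.32, the cytokine Il1b at 3.18 ± 0.62, Lcn2, which binds bacterial siderophores, at 3.39 ± 0.74, and Sod2, the mitochondrial superoxide dismutase, at 2.24 ± 0.52 (SE). Each of these 4 also passed in the block fit without 11C7, with adjusted p by limma of 0.0274, 0.0347, 0.0384 and 0.0268, and lost the call with any further array left out. Nos2, the inducible nitric oxide synthase, was the 1 listed gene below the controls, at -0.46 ± 0.70, and Ptgs2, the inducible cyclooxygenase, lay at 0.28 ± 0.88; these 2 were chosen after their values were seen.

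Of the targets of the TRIF and interferon branch, 16 of 17 measured stood above the controls in 7B12, with a median of 1.86. Gbp2, an interferon-induced GTPase, lay at 2.79 ± 0.45, the chemokine Cxcl10 at 2.79 ± 0.54, the ubiquitin-like Isg15 at 2.34 ± 0.46 and the interferon regulator Irf7 at 2.44 ± 0.54 (SE). Gbp2 also passed in the block fit without 11C7 (adjusted p = 0.0451 by limma), again lost with any further array left out, and Cxcl10 did not (adjusted p = 0.182). Ifnb1, the gene of interferon beta, lay at -0.29 ± 0.93 and the regulator Irf1 at 0.05 ± 0.23; both were chosen after their values were seen.

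By the mean log2 value over a list, the 7B12 arrays lay above all 6 controls for both target lists, while the 11C7 arrays overlapped 7B12 and IgG overlapped NT. Over the MYD88 targets it ran from 0.76 to 1.80 on the 7B12 arrays, from -0.34 to 1.15 on the 11C7 arrays, from -0.93 to -0.27 on the IgG arrays and from -0.82 to -0.25 on the NT arrays. Over the TRIF and interferon targets it ran from 0.64 to 2.01 in 7B12, from -0.55 to 0.87 in 11C7, from -0.76 to -0.42 in IgG and from -0.93 to -0.31 in NT. In both lists the highest 11C7 value is that of 11C7 1.

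**Figure D4:**
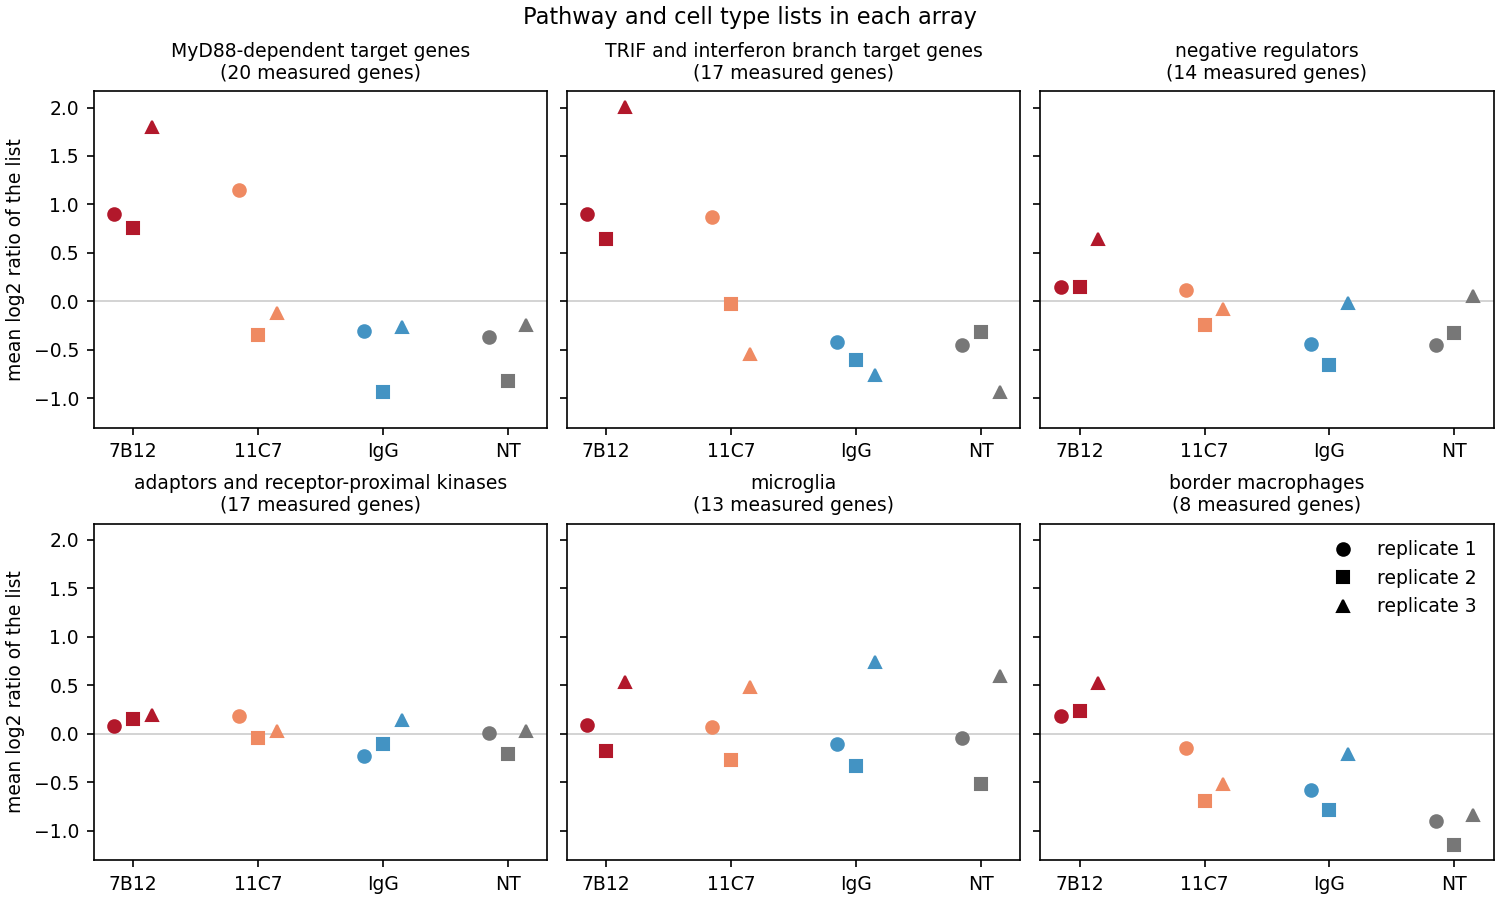
Mean log2 value over the measured genes of a list on each of the 12 arrays, for 4 pathway lists, microglia markers and border macrophage markers, with groups from left to right 7B12, 11C7, IgG and NT; each point is an array. The 7B12 arrays lie between 0.76 and 1.80 for the MYD88 targets, above all 6 controls, while for the microglia markers they lie between -0.17 and 0.53, within the range of the controls.

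Markers of the immune cells that carry these receptors were read in the same way. In such bulk samples fewer cells of a type and less RNA per cell cannot be told apart. Of the microglia markers, 9 of 13 measured stood above the controls in 7B12, with a median of 0.12. Their mean log2 value ran from -0.17 to 0.53 in 7B12, from -0.27 to 0.48 in 11C7, from -0.33 to 0.74 in IgG and from -0.52 to 0.60 in NT, and the 4 groups overlapped. With the number as a block, 3 of their 17 probe sets were higher in 7B12 at an unadjusted p under 0.05 by limma and 4 were lower. Over all probe sets these shares were 5.16% and 4.29%, and 0 passed after adjustment. P2ry12, a receptor of resting microglia, lay at -0.56 ± 0.41 in 7B12 against the controls, Aif1, a general marker, at 0.34 ± 0.24 and Tmem119 at 1.07 ± 0.36 (SE).

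Markers of border macrophages, which line vessels and meninges, separated the 7B12 arrays from the controls by their mean but not by their median. Of 8 measured, 6 stood above the controls in 7B12 and 2 below, the lowest at -0.57, with a median of 0.82. Their mean log2 value ran from 0.18 to 0.52 in 7B12, from -0.70 to -0.15 in 11C7, from -0.79 to -0.21 in IgG and from -1.15 to -0.84 in NT. Their median log2 value was 0.18, 0.25 and 0.14 on the 7B12 arrays. IgG 3 at 0.26 and 11C7 1 at 0.56 lay above these, and the other control arrays lay below. Mrc1, the mannose receptor, lay at 2.46 ± 0.61, Ms4a7 at 2.84 ± 0.64 and Lyz2, a lysozyme gene of myeloid cells, at 1.399 ± 0.30 (SE). The part of these cells in the values of the receptor genes was not tested.

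Of the markers of blood granulocytes and lymphocytes, 6 of 7 measured stood above the controls in 7B12, with a median of 1.23 and the lowest at -1.22. In 11C7, 7 of 7 stood above the controls with a median of 0.75, and in IgG 6 of 7 stood above NT with a median of 0.60. The direction of these markers was thus not particular to 7B12. Their mean log2 value ran from -0.52 to 0.63 in 7B12, from -1.21 to -0.26 in 11C7, from -1.99 to -0.05 in IgG and from -2.62 to -0.84 in NT. Itgal, an integrin subunit of leukocytes, lay at 3.86 ± 0.70 and passed in the block fit without 11C7 (SE; limma, adjusted p = 0.00422), a call lost with any further array left out. Because values are ratios, which of these markers are near 0 in level cannot be read, and their part in the result was not tested. The medians in 7B12 were -0.05 for astrocyte, -0.40 for endothelial, -0.00 for neuronal and -0.15 for oligodendrocyte markers.

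Across the 12 arrays the members other than Lbp followed each other, with Pearson's r from 0.57 for Tlr4 and Cd14 to 0.96 for Tlr2 and Myd88, while r of Lbp with the others ran from -0.06 to 0.38. These are descriptions: the arrays share the group differences and the shifts between numbers. Among all 14217 genes, those most like Tlr2 were Pik3ap1, an adaptor of phosphoinositide 3-kinase, at r = 0.99, Rcsd1 and Hpgds, a prostaglandin D synthase. Those most like Cd14 were the chemokine Ccl3 at r = 0.99 and the actin regulators Vasp and Coro1b. Ly96 was most like Lpxn, Arhgdib and Cmtm7, and Myd88 most like the chemokine Cxcl16, the kinase Lyn and the complement receptor gene C3ar1. Such likeness was common, with r above 0.9 for 123 genes with Tlr2, 104 with Cd14, 86 with Ly96 and 99 with Myd88.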

How the data were processed

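RNA of 12 samples in 4 groups was measured on Affymetrix rat arrays as biotin-labelled cRNA, as the labels' protocols state. GCOS 1.4 and MAS5 were used, per the submitters' processing notes; the version of MAS5 is not given there. The values deposited by the authors are ratios, a normalization per array and per probe set that the design text describes as relative to the control median. In the values, 76.4% of probe sets have a median of 1 over all 12 arrays (tolerance 0.0015) and 11.2% over the 6 controls. A constant divisor leaves log2 differences between groups as they are. Such ratios have no depth, and the 3 arrays per group limit the precision.

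Of 31099 probe sets, 57 spike-in controls were left out. The log2 ratio less the array median was fitted in limma 3.58.1 (R 4.3.3) with 1 mean per group over 12 arrays and eBayes without a trend, in two-sided tests with Benjamini-Hochberg adjustment. The script's estimates were tested on simulated data that held no shift shared by arrays of a number. That simulation therefore does not test the calls of the block fits on these data. Groups and replicate numbers come from the sample titles. Same-numbered 7B12 and control arrays correlated in their deviations from the group means at r = 0.120 to 0.423 in 6 of 6 pairs and IgG with NT at 0.127 to 0.365, so these numbers were taken as pairing the samples; with 11C7 the lowest r was 0.0861, under 0.1. Named genes were the members, the genes of each list with the lowest p in 7B12 and the 3 most alike genes of 4 members. The members and lists were chosen with earlier results of these data known. Gene positions and promoters come from RefSeq (GRCr8). Alternatives were other scalings, controls, arrays left out, a replicate block, array weights and the authors' analysis of variance.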

Additional observations from a re-analysis of the deposited data

How the results depend on the processing

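Across 46 to 47 settings per gene, 6 of the 7 genes stood above the controls in 7B12 in each one, the exception being Lbp. Several settings cannot change this difference, such as the block over all 12 arrays or 11C7 left out, where Tlr2 stayed at 1.75. Many others leave out 1 array of the same data, so the count is no tally of independent checks. The number of arrays limits these results, and signal over background cannot be read from ratios. The median over the members in 7B12 was 1.13 against NT alone. In 7B12, 1 probe set passed with 11C7 left out, 1 with only the groups compared in the fit, and 68 with 11C7 left out and the replicate block. For both antibodies 1 passed against NT alone, and for IgG against NT 1 passed among probe sets with a median of 1 or more. The design text's one-way analysis of variance over the 4 groups was also run, with an unadjusted p and at least 1.2-fold in the comparison. Of 31042 probe sets, 815 met both limits in 7B12, 729 in 11C7, 735 in both antibodies, 573 in IgG against NT and 804 in 7B12 against 11C7. Each probe set had 1 p over the 4 groups, used for all 5 comparisons. These counts therefore test no comparison by itself. Over the 4 groups 1028 probe sets (3.31%) had an unadjusted p under 0.05 and 0 an adjusted one, and Cd14 was the 1 member of 7 among the 1028.

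Leaving out 1 array gave 0 to 10 probe sets in 7B12, the 10 without 11C7 1, and 0 to 99 with the replicate block, the 99 again without 11C7 1. It gave 0 to 1 in 11C7, in both antibodies and in IgG against NT, and 0 to 27 in 7B12 against 11C7. With the block and 11C7 left out, a further array left out gave 0 in 7B12 in each of 9 fits. The replicate block over all 12 arrays changed no call and put 1783 probe sets of 11C7 at an unadjusted p under 0.05 (999 without it); each of the 12 arrays correlated best with an array of its own number.

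Directions turned as follows, and the cause was not tested. Lbp lay at -0.49 in 7B12 and -0.77 in both antibodies against IgG alone, and in 11C7 at 0.96 against NT alone and 0.27 with array weights. Tlr4 in 11C7 lay at -0.040 against IgG alone and -0.060 with array weights. Myd88 in IgG against NT lay at 0.0013 with the values as deposited. With 1 array left out, with or without the block, Lbp ran from -0.88 to 1.60 in 7B12, -0.94 to 0.87 in 11C7, -0.46 to 0.75 in both antibodies and -0.56 to 1.51 in 7B12 against 11C7. In 11C7, Tlr2 ran from -0.10 to 1.08, Tlr4 from -0.14 to 0.26 and Myd88 from -0.0096 to 0.29. In IgG against NT, Tlr2 ran from -0.28 to 0.49, Cd14 from -0.12 to 0.36, Tlr7 from -0.055 to 0.51, Ly96 from -0.044 to 0.43 and Myd88 from -0.11 to 0.075. The choice among several probe sets was not run, since each member has 1.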
